A study of Mus musculus with 91 samples.

Results

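The glucocorticoid receptor Nr3c1, the mineralocorticoid receptor Nr3c2 and 8 genes known as glucocorticoid targets (Fkbp5, Sgk1, Tsc22d3, Ddit4, Zbtb16, Errfi1, Pdk4 and Cdkn1a) were followed in mRNA bound to ribosomes in neurons of the mouse nucleus accumbens. The genes were chosen by Ensembl identifier, and all 10 of the 10 listed identifiers were present among the 14355 genes of the deposited count table. Every one of these genes had counts above 0 in all 91 libraries.

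The libraries came from male and female mice over 10 weeks old, kept under 12 h of light and 12 h of dark with food and water always present. Drd1-Cre mice crossed to RiboTag mice gave the D1 neurons, which carry the dopamine receptor Drd1, and A2a-Cre mice crossed to RiboTag mice gave the D2 neurons. In both crosses Cre switches on a hemagglutinin-tagged Rpl22, a protein of the large ribosomal subunit, and an antibody to the tag pulls down the ribosomes with the mRNA they hold. Punches of the accumbens were taken at ZT 2, 6, 10, 14, 18 and 22, where zeitgeber time (ZT) counts hours after lights on and the dark phase begins at ZT 12, and tissue of 2 mice was pooled per sample. D1 neurons had 22 male and 23 female libraries, and D2 neurons had 23 male and 23 female libraries. They form 24 groups of 3 or 4 by cell type, sex and time, and every title carries a letter (A, B, C, D or E) that tells the libraries of a group apart. Cell type and Cre line cannot be told apart, and because these are pulldowns from bulk tissue, fewer tagged cells and less mRNA per cell cannot be told apart either. The labels give no animal identifiers, so p-values measure the spread between these samples. Marker genes of the D1, D2 and other cell types could not be looked up here, since neither the table nor the reference pairs other identifiers with names, and the part of RNA from other cells was not tested.

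Glucocorticoids, of which corticosterone is the main one in mice, bind the receptors encoded by Nr3c1 and Nr3c2, which then move to the nucleus and act on transcription at glucocorticoid response elements. The mineralocorticoid receptor binds corticosterone more tightly and is largely occupied even at the daily low, while the glucocorticoid receptor fills as the hormone rises. In nocturnal rodents the hormone rises daily around the start of the dark phase. Several targets feed back on the pathway or on growth and energy use, and they are widely used as readouts of receptor activity in brain.

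The response element is commonly read as an inverted repeat of AGAACA and its reverse complement TGTTCT with 3 bases between them. RefSeq promoter windows of build GRCm38.p6, from 250 bases before to 50 bases after an annotated start, were found by symbol for 8 of the 10 genes, 17 windows in all, and not for Nr3c1 and Zbtb16. AGAACA or TGTTCT, which covers both strands, occurred in 4 of the 17 windows, against 19.0% of all 32851 windows of the table, and these 4 belonged to Sgk1 (3 of its 6 annotated starts) and Tsc22d3 (1 of 3). The repeat with 3 bases between occurred in 1 of them, the window of Sgk1 start 5, and in 3 of all 32851 windows (0.00913%). Windows of Sgk1, Tsc22d3 and Fkbp5 are printed because the first holds the repeat, the second a single copy of the motif and the last no copy, with each AGAACA or TGTTCT in capitals.
Sgk1, annotated start 5, chr10:21993640-21993939, plus strand: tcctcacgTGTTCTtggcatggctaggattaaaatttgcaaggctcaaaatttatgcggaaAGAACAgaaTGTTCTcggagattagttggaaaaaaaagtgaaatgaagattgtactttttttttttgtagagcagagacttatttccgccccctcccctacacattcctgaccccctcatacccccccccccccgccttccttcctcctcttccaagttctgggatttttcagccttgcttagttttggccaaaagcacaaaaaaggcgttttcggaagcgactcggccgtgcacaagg
Tsc22d3, annotated start 2, chrX:140600473-140600772, minus strand: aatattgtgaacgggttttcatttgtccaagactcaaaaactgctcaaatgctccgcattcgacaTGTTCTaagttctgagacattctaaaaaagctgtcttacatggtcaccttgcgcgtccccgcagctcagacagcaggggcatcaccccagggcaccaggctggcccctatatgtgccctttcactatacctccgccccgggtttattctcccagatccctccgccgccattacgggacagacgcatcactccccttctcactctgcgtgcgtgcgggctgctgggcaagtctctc
Fkbp5, its only annotated start in the table, chr17:28486100-28486399, minus strand: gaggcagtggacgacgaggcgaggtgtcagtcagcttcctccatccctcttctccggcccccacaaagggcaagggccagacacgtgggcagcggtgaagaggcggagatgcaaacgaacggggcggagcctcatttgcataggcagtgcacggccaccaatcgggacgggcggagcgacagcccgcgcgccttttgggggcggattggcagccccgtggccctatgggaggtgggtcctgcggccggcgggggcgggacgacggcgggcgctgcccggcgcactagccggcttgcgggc
In the Sgk1 window the motif begins at -242, -189 and -180 relative to the start, and the copies at -189 and -180 make up the repeat. In the Tsc22d3 window it begins at -185. A match is a run of letters and was not tested for binding.

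Depth lay between 6872165 and 24665262 counts per library (14296688 ± 3740182, SD, n = 91). Levels are given as CPM, counts scaled to a common library total after TMM adjustment, which do not correct for gene length, so levels are compared within a gene and not between genes. A rhythm is described by its amplitude, the height from mean to peak of a 24 h cosine on the log2 scale, and by its peak time. A gene is called where the adjusted p of edgeR's quasi-likelihood test over all 14355 genes is below 0.05. Among D1 male libraries, 3 stood apart: ZT 10 letter B had 789 genes at 0, ZT 18 letter D had 205 and ZT 22 letter B had 722. In those 3 libraries Fkbp5 had 132.5, 86 and 95.8 CPM and Nr3c2 had 51.4, 57.2 and 89.4 CPM. Results that were refitted without them and changed are given both ways.

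Zbtb16 was the gene of the set with the largest daily rhythm in both cell types. It encodes PLZF, a zinc finger repressor of transcription. In D1 neurons its lowest, median and highest CPM were 4.76, 7.50 and 12.5 at ZT 2 (n = 8), and 4.46, 8.95 and 11.2 at ZT 6 (n = 8). At ZT 10 they were 12.4, 14.9 and 20.9 (n = 8), at ZT 14 they were 11.2, 15.0 and 29.5 (n = 7), at ZT 18 they were 10.3, 13.2 and 26.4 (n = 6), and at ZT 22 they were 5.24, 10.8 and 19.9 (n = 8). The libraries of ZT 10 lay above nearly all of those of the early light phase, and levels stayed high until ZT 18 and were lower again at ZT 22. The fitted amplitude was 0.62 ± 0.10 (SE) with a peak at ZT 14.6, which makes a 2.36-fold range from trough to peak (adjusted p = 7.19e-04). Without the 3 D1 libraries that stood apart the amplitude was 0.61 (adjusted p = 8.78e-04). It was 0.58 without the letter C libraries (adjusted p = 0.0829) and 0.57 without the letter D libraries (adjusted p = 0.0713). The D1 call was lost in these fits while the amplitude moved little. They hold fewer libraries, and calls over all genes fell from 71 to 13 without letter C and to 18 without letter D.

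In D2 neurons Zbtb16 had a lowest, median and highest level of 5.74, 8.98 and 11.8 CPM at ZT 2 (n = 7), and of 5.99, 9.44 and 13.9 CPM at ZT 6 (n = 7). The corresponding levels were 11.7, 15.5 and 23.1 CPM at ZT 10, 6.54, 16.3 and 23.1 CPM at ZT 14, 5.93, 12.7 and 19.1 CPM at ZT 18 and 4.64, 10.7 and 15.2 CPM at ZT 22 (n = 8 each). The medians followed the order seen in D1 neurons up to ZT 14, and single libraries at ZT 14 and ZT 18 were as low as those of ZT 2. The amplitude was 0.46 ± 0.10 (SE) with a peak at ZT 13.1, a 1.89-fold range (adjusted p = 0.00854), and it was 0.46 with an adjusted p of 1.4e-05 with the letter as a block. Leaving out letter B, C or D took the adjusted p to 0.0716, 0.095 or 0.125, with amplitudes of 0.47, 0.44 and 0.46. With time as 6 unordered levels there is no cosine amplitude. The span from the lowest to the highest level, divided by 2, was 0.43 (log2, adjusted p = 0.148).

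Tsc22d3 encodes GILZ, a leucine zipper protein that carries part of the anti-inflammatory action of glucocorticoids. In D2 neurons its lowest, median and highest CPM were 8.99, 9.70 and 17.5 at ZT 2 (n = 7), 8.67, 11.1 and 14.2 at ZT 6 (n = 7), 13.3, 17.2 and 19.6 at ZT 10 (n = 8) and 14.7, 16.8 and 20.1 at ZT 14 (n = 8). They were 11.4, 15.2 and 17.7 at ZT 18 and 10.9, 13.6 and 17.7 at ZT 22 (n = 8 each). No library of ZT 14 was below the highest library of ZT 6, and a single ZT 2 library reached the range of ZT 14. The amplitude was 0.29 ± 0.05 (SE) with a peak at ZT 14.2, a 1.5-fold range (adjusted p = 0.00183), and without the letter C libraries it was 0.26 (adjusted p = 0.0667).

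In D1 neurons Tsc22d3 averaged 11.5 ± 1.07 CPM at ZT 2, 11.7 ± 1.47 at ZT 6 and 14.9 ± 2.15 at ZT 10 (SD, n = 8 each). It averaged 14.8 ± 1.35 CPM at ZT 14 (n = 7), 13.7 ± 2.7 at ZT 18 (n = 6) and 14.1 ± 1.72 at ZT 22 (n = 8). The D1 amplitude was 0.19 ± 0.05 (SE) with a peak at ZT 15.1 and missed the threshold (adjusted p = 0.102). It passed without the 3 D1 libraries that stood apart (0.20, adjusted p = 0.0106) and with the library total as a covariate (0.19, adjusted p = 0.0403). The test of the difference in rhythm between D1 and D2 neurons gave an adjusted p of 0.724, so the cell types are not shown to differ.

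Sgk1 encodes a kinase that regulates ion channels and transporters, and the window of its start 5 holds the repeat printed above. In D2 neurons its lowest, median and highest CPM were 40.6, 53.3 and 58.0 at ZT 2 (n = 7), 45.5, 49.5 and 62.9 at ZT 6 (n = 7) and 50.4, 57.9 and 65.0 at ZT 10 (n = 8). They were 51.2, 61.6 and 71.6 at ZT 14, 52.4, 58.1 and 65.2 at ZT 18 and 47.7, 54.9 and 58.0 at ZT 22 (n = 8 each). The groups of neighbouring times overlapped throughout, and ZT 14 held the highest libraries. The D2 amplitude was 0.14 ± 0.03 (SE) with a peak at ZT 14.6, a 1.22-fold range (adjusted p = 0.00725). The call was lost without letter A (adjusted p = 0.0702), letter B (0.108) or letter C (0.345, with an amplitude of 0.11), and with time as 6 unordered levels (0.162). In D1 neurons the amplitude was 0.10 ± 0.04 (SE) with a peak at ZT 10.6 (adjusted p = 0.292).

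**Figure D1:**
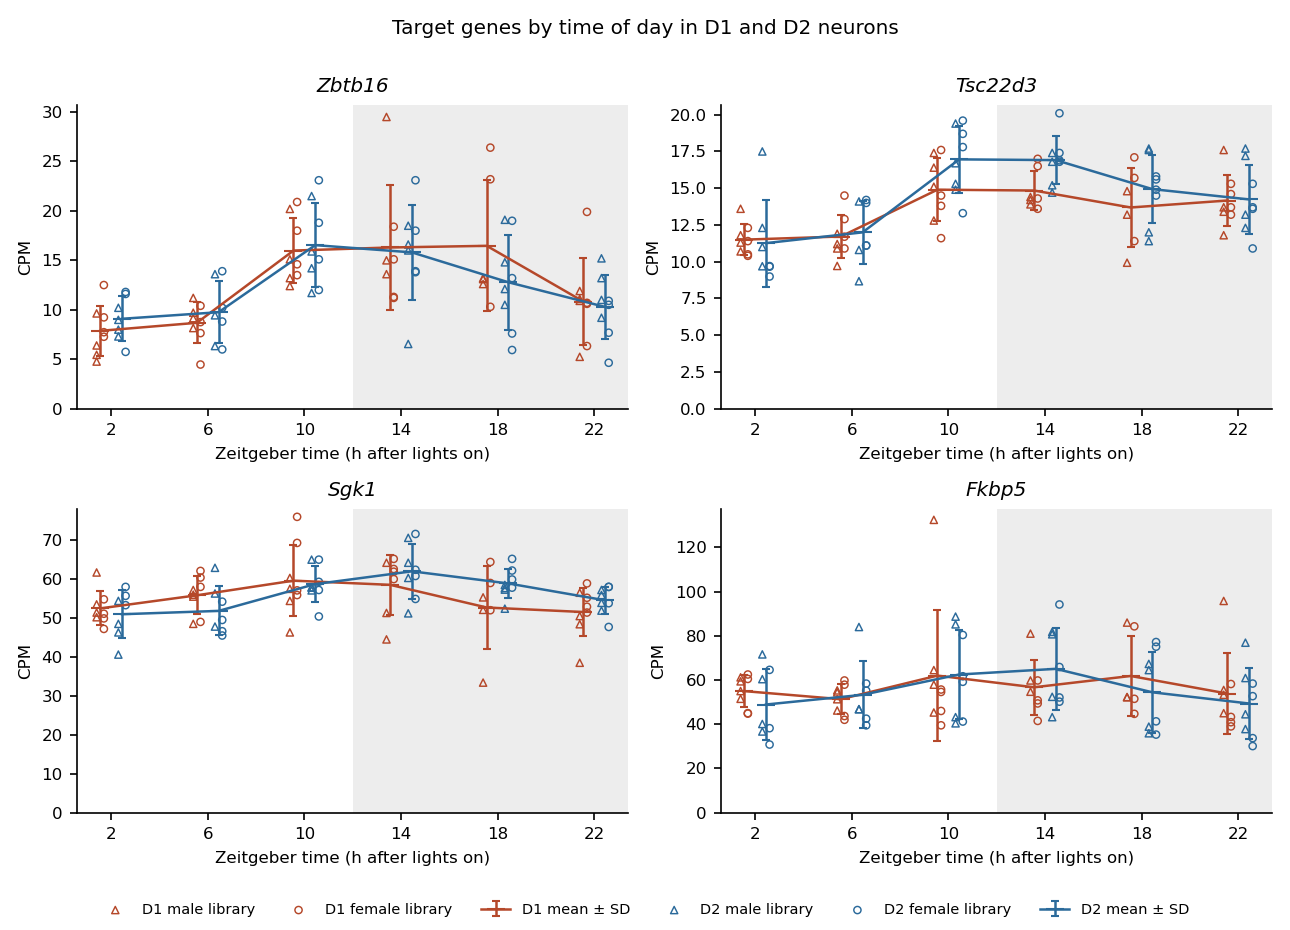
CPM of Zbtb16, Tsc22d3, Sgk1 and Fkbp5 against zeitgeber time in hours, with a symbol per library (triangles male, circles female) and lines through the mean ± SD of D1 and D2 libraries at each time; the dark phase is shaded. Zbtb16 averaged 7.87 CPM in D1 libraries and 9.09 CPM in D2 libraries at ZT 2, and 16.3 CPM in D1 libraries and 15.8 CPM in D2 libraries at ZT 14.

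Fkbp5 encodes a co-chaperone of the receptor that lowers its affinity for hormone, so it acts as a brake on the receptor. In D2 neurons it averaged 48.9 ± 16.1 CPM at ZT 2 (n = 7), 53.3 ± 15.1 at ZT 6 (n = 7), 62.5 ± 20.2 at ZT 10, 65.1 ± 18.5 at ZT 14, 54.5 ± 18.3 at ZT 18 and 49.4 ± 15.8 at ZT 22 (SD, n = 8 each). The times overlapped widely: libraries ran from 30.8 to 71.6 CPM at ZT 2 and from 43.2 to 94.2 CPM at ZT 14. The amplitude was 0.23 ± 0.09 (SE) with a peak at ZT 12.4 and missed the threshold (adjusted p = 0.358).

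Much of that spread went with the letter in the library titles, whose meaning the labels do not give. In D2 neurons Fkbp5 averaged 73.9 ± 12.6 CPM in letter A (n = 12), 67.6 ± 10.7 in letter B (n = 10), 42.5 ± 9.21 in letter C (n = 12) and 41.1 ± 5.03 in letter D (n = 12). The lowest letter A library, at 55.2 CPM, was above the highest letter D library, at 52.1 CPM. All 243 same-letter pairs of D2 libraries deviated together from their group means over all genes (lowest correlation 0.22), so the letter was taken as pairing D2 libraries. With the letter as a block the Fkbp5 amplitude was 0.22 ± 0.03 (SE) with a peak at ZT 11.9 (adjusted p = 3.84e-05). Within the 7 D2 pairs of one sex and letter that have both times, ZT 14 over ZT 2 was above 1 in 7 of 7 pairs, with ratios of 1.08 to 1.63 and a median of 1.36. Ddit4 was also above 1 in 7 of 7 D2 pairs, and the other genes in 2 to 6. Fkbp5 had its highest D2 mean at ZT 14 (65.1 CPM) and its lowest at ZT 2 (48.9 CPM), so its count is not separate evidence of a rhythm. The share of all genes that rose in every pair was not computed. In D1 neurons Fkbp5 was above 1 in 4 of 7 pairs, with ratios of 0.687 to 1.36. Its D1 amplitude was 0.10 ± 0.07 (SE, adjusted p = 0.677), and 0.06 (adjusted p = 0.782) without the 3 D1 libraries that stood apart. Library totals went with the letters too: D2 libraries averaged 19727033 ± 3011572 counts in letter A, 16241681 ± 3878526 in B, 11336342 ± 1749182 in C and 10904585 ± 1753165 in D (SD). With the library total as a covariate the D2 amplitude of Fkbp5 was 0.19 (adjusted p = 0.0497).

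The letters moved the genes of the set in different directions. Cdkn1a, the gene of the cell cycle inhibitor p21, averaged 6.48 ± 1.18 CPM in letter A, 5.95 ± 1.15 in B, 3.27 ± 0.774 in C and 3.77 ± 0.68 in D of the D2 libraries. Zbtb16 ran the other way, with 9.13 ± 3.13 CPM in letter A, 11.4 ± 4.15 in B, 16.0 ± 4.76 in C and 13.3 ± 4.13 in D. Nr3c1 had 144.8 ± 9.82 CPM in letter A and 109.6 ± 2.74 CPM in letter D. Sgk1 hardly differed, with 56.9 ± 6.23, 54.7 ± 7.54, 57.5 ± 7.72 and 56.0 ± 4.53 CPM in letters A to D (SD, n = 12, 10, 12 and 12).

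**Figure D2:**
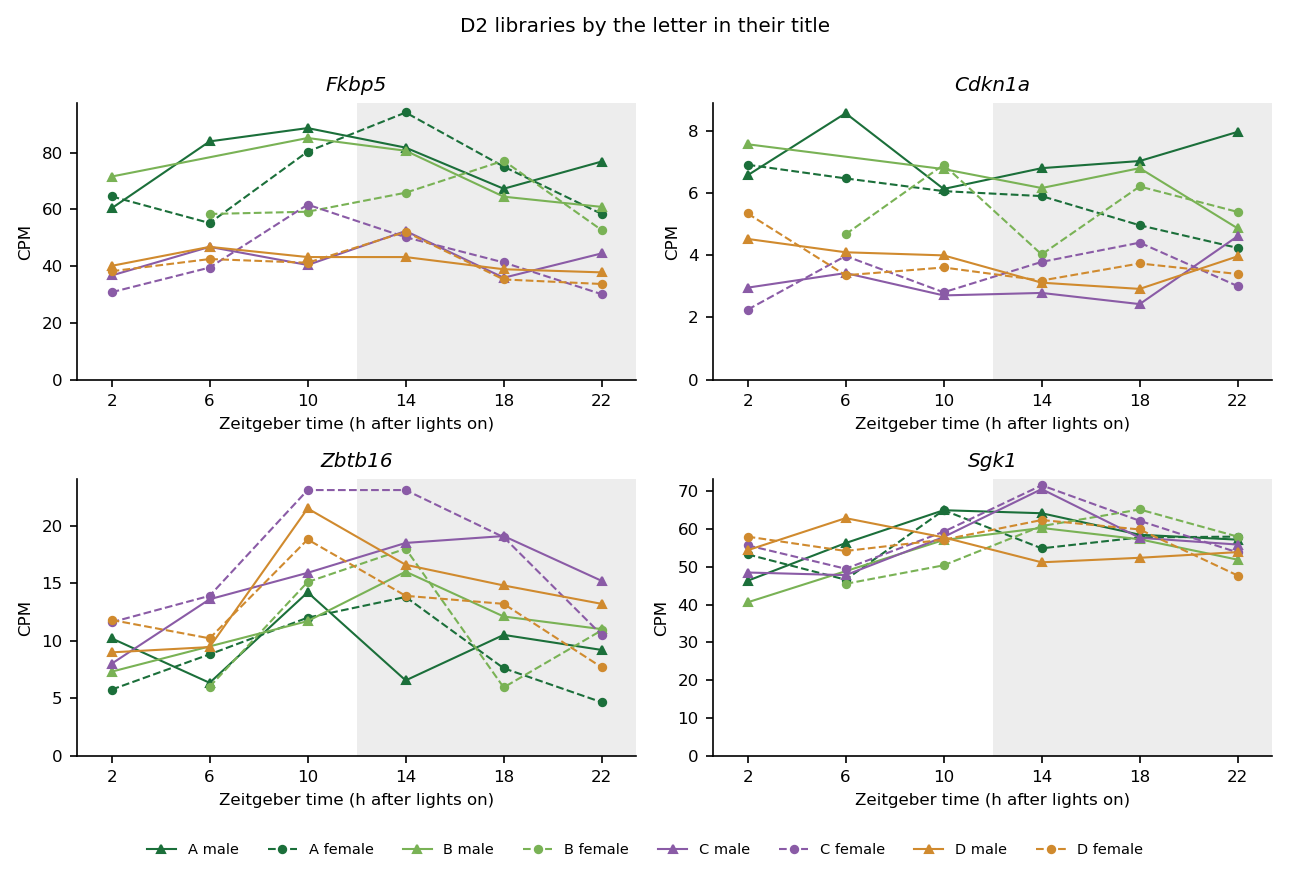
CPM of Fkbp5, Cdkn1a, Zbtb16 and Sgk1 in D2 libraries against zeitgeber time in hours, with a line per letter and sex (solid with triangles male, dashed with circles female). By their means, letters A and B lie above C and D for Fkbp5 and Cdkn1a (73.9 and 67.6 against 42.5 and 41.1 CPM for Fkbp5), below them for Zbtb16, and among them for Sgk1. Single lines cross, as for Fkbp5 in females at ZT 10 (61.7 CPM in letter C, 59.2 in letter B).

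The receptors showed less daily change than Zbtb16 and Tsc22d3. In D1 neurons Nr3c1 had a lowest, median and highest level of 129.3, 144.5 and 156.6 CPM at ZT 2, 110.0, 121.2 and 147.6 at ZT 6 and 99.2, 109.0 and 142.5 at ZT 10 (n = 8 each). The levels were 113.9, 124.5 and 130.2 CPM at ZT 14 (n = 7), 93.3, 124.4 and 145.6 at ZT 18 (n = 6) and 114.8, 130.2 and 147.5 at ZT 22 (n = 8). The ZT 2 group overlapped those of ZT 10 and ZT 14, and its lowest library was above the medians of both. The D1 amplitude was 0.12 ± 0.03 (SE) with a peak at ZT 0.8 (adjusted p = 0.21). In D2 neurons the means of the 6 times lay between 121.4 and 130.6 CPM, and the amplitude was 0.04 (adjusted p = 1).

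Nr3c2 in D1 neurons averaged 110.4 ± 11.3 CPM at ZT 2, 108.9 ± 5.44 at ZT 6 and 91.7 ± 18.2 at ZT 10 (SD, n = 8 each), then 95.6 ± 11.6 at ZT 14 (n = 7), 88.3 ± 17.4 at ZT 18 (n = 6) and 96.1 ± 4.33 at ZT 22 (n = 8). The D1 amplitude was 0.15 ± 0.04 (SE) with a peak at ZT 3.7 (adjusted p = 0.198), and 0.12 (adjusted p = 0.0677) without the 3 libraries that stood apart, which hold the lowest values at ZT 10 and ZT 18. It passed with the library total as a covariate, at 0.15 (adjusted p = 0.0466). In D2 neurons the means of the 6 times lay between 106.1 and 110.5 CPM, with an amplitude of 0.02 (adjusted p = 1). The difference in rhythm between D1 and D2 neurons had an unadjusted p of 0.0268 for Nr3c2 and an adjusted p of 0.515.

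**Figure D3:**
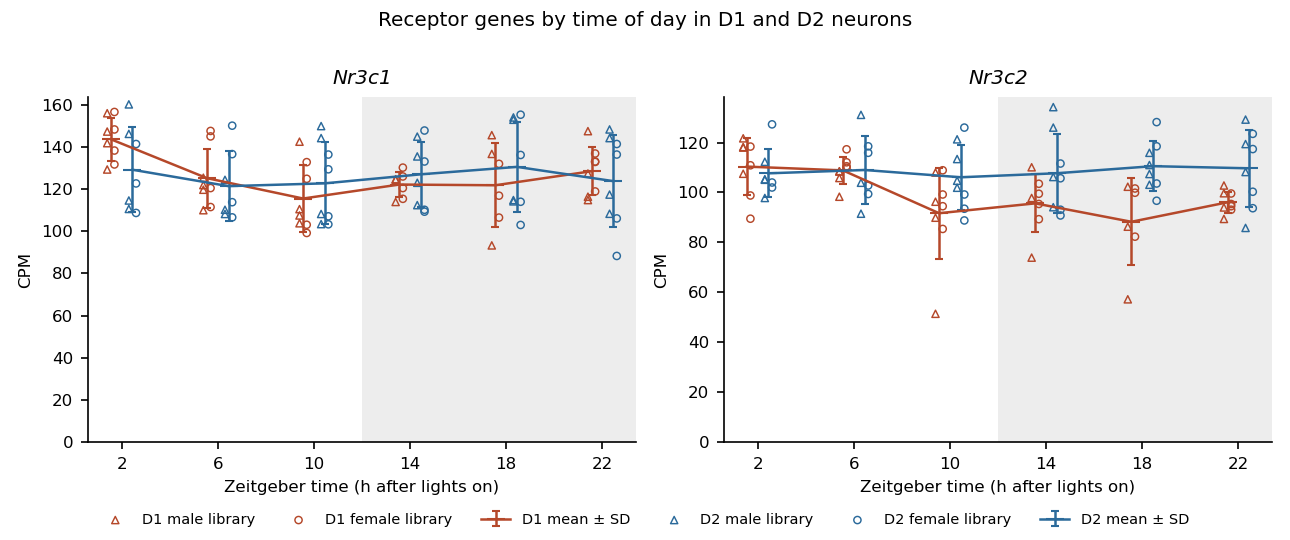
CPM of Nr3c1 and Nr3c2 against zeitgeber time in hours, with a symbol per library (triangles male, circles female) and lines through the mean ± SD of D1 and D2 libraries; the dark phase is shaded. D1 means were highest at ZT 2 for both genes, 143.7 CPM for Nr3c1 and 110.4 CPM for Nr3c2.

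The other targets passed the rhythm test in neither cell type. Ddit4, whose product REDD1 restrains mTOR signalling, had amplitudes of 0.05 in D1 and 0.12 in D2 neurons (adjusted p = 0.892 and 0.699, and 0.0604 for the D2 fit that blocks on the letter). Errfi1, whose product inhibits the EGF receptor, had amplitudes of 0.07 in D1 and 0.08 in D2 neurons (adjusted p = 0.634 and 0.736). Pdk4, a kinase that shuts down pyruvate dehydrogenase, had amplitudes of 0.16 ± 0.11 in D1 and 0.17 in D2 neurons (adjusted p = 0.637 and 0.732), from levels of 0.612 to 4.21 CPM over the libraries of both types. Cdkn1a had amplitudes of 0.27 ± 0.11 in D1 and 0.06 in D2 neurons (adjusted p = 0.396 and 1). Its D1 mean was 7.05 ± 1.78 CPM at ZT 2 (n = 8) and 4.3 ± 2.02 CPM at ZT 18 (n = 6). The ZT 18 group holds male letter D, a library that stood apart, at 0.784 CPM, and the group median was 4.77 CPM. The fitted D1 peak of this rhythm, which was not called, was at ZT 4.2, on the other side of the day from that of Zbtb16. Without the 3 D1 libraries that stood apart the amplitude was 0.25 (adjusted p = 0.225).

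In all, 1 of the 10 genes was called rhythmic in D1 neurons, where 0.495% of all genes were, and 3 of 10 in D2 neurons, where 2.94% were. With the letter as a block, 4 of 10 were called in D2 neurons, where 22.3% of all genes were. The median amplitude of the set was 0.13 in D1 and 0.13 in D2 neurons, against 0.09 and 0.07 over all genes. An amplitude cannot be negative, so noise adds to it, and the set was not compared with genes of like level. In a test over all 91 libraries, added after the data were seen, 3 of 10 were called against 3.92% of all genes: Zbtb16 (amplitude 0.53, peak ZT 14.0, adjusted p = 1.88e-07), Tsc22d3 (0.24, ZT 14.5, 5.14e-06) and Sgk1 (0.11, ZT 12.9, 0.00425). Ordered by p, Zbtb16 stood at 18, Tsc22d3 at 31 and Sgk1 at 203 of 14355 genes. This test shares its libraries with the tests by cell type and is not separate evidence.

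The fitted peaks of the called genes fell between ZT 13.1 and ZT 14.6, shortly after the start of the dark phase. A peak time between the sampled times comes from the cosine. Zbtb16 averaged 16 CPM at ZT 10, still in the light, and 16.3 at ZT 14 in D1 neurons, and 16.5 and 15.8 in D2 neurons. Tsc22d3 averaged 17 and 16.9 CPM in D2 neurons at these times, so both genes were already near their highest means at ZT 10. Sgk1 averaged 58.7 and 62 CPM in D2 neurons. D1 and D2 peaks were 1.4 h apart for Zbtb16, 0.9 h for Tsc22d3, 2.4 h for Fkbp5 and 4.0 h for Sgk1. In rhythm, 0 of 10 genes differed between D1 and D2 neurons by edgeR at the adjusted threshold, where 0.0139% of all genes did. DESeq2 also called 0 of 10, where it called 0.223% of all genes. By edgeR, an unadjusted p below 0.05 was found for 2 of the 10, Sgk1 and Nr3c2, and for 8.46% of all genes.

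**Figure D4:**
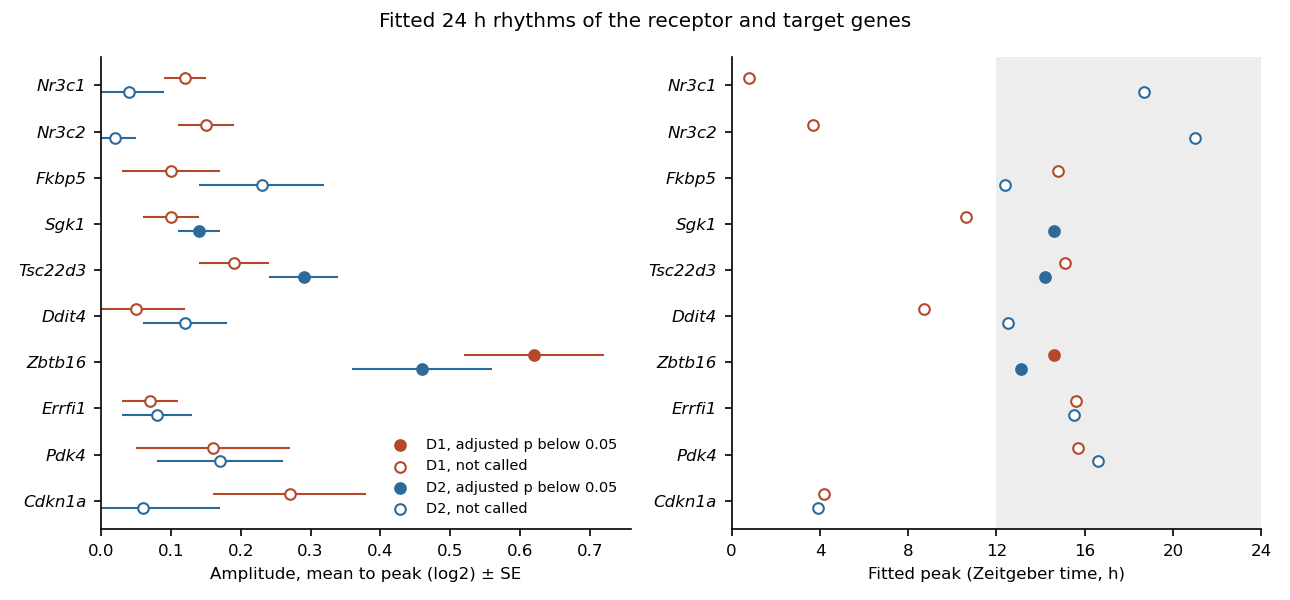
Left, amplitude (log2, mean to peak) ± SE of each gene in D1 and D2 neurons; right, the fitted peak time in hours after lights on, with the dark phase shaded. Filled points have an adjusted p below 0.05: Zbtb16 in D1 neurons (0.62), and Zbtb16 (0.46), Tsc22d3 (0.29) and Sgk1 (0.14) in D2 neurons.

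In mean level over the day, 1 of 10 genes was called different between D1 and D2 neurons, against 19.3% of all genes, a share near that of the whole table. That gene was Nr3c2, which was lower in D1 neurons at 99.0 ± 14.2 CPM (n = 45) than in D2 neurons at 108.5 ± 12.5 CPM (SD, n = 46). The lowest, median and highest libraries were 51.4, 99.6 and 121.7 CPM among D1 libraries and 85.8, 105.5 and 134.2 CPM among D2 libraries, so the groups overlapped over most of their range. The D1 minus D2 difference was -0.15 ± 0.04 (log2, SE), a ratio of 0.903 (adjusted p = 0.0034). It was -0.10 (adjusted p = 0.0265) without the 3 D1 libraries that stood apart and -0.09 (adjusted p = 0.141) without the letter B libraries.

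Nr3c1 averaged 126.4 ± 15.5 CPM in D1 neurons, against 125.8 ± 18.5 CPM in D2 neurons, a difference of 0.00 ± 0.04 (log2, SE). Cdkn1a averaged 5.90 ± 1.98 CPM in D1 neurons and 4.82 ± 1.68 CPM in D2 neurons, a difference of 0.26 ± 0.11 that missed the threshold (adjusted p = 0.078). It passed in the fit that blocks on the letter (0.30, adjusted p = 9.35e-04), with the library total as a covariate (0.29, adjusted p = 0.007) and without the letter A libraries (0.39, adjusted p = 0.0132). Pdk4 averaged 2.27 ± 0.752 CPM in D1 neurons and 2.60 ± 0.773 CPM in D2 neurons (-0.19 ± 0.10, adjusted p = 0.166, and -0.28 with an adjusted p of 0.0407 without letter A). The other 6 targets differed by 0.08 or less in size, and the median size over the set was 0.04 against 0.09 over all genes.

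The sexes were compared within each cell type. In D1 neurons 0 of 10 genes were called by edgeR, where 0.0418% of all genes were. An unadjusted p below 0.05 was found for 3 of the 10 and for 15.5% of all genes. Fkbp5 averaged 62.3 ± 20.3 CPM in male (n = 22) and 51.1 ± 10.5 CPM in female D1 libraries (n = 23), a difference of 0.29 ± 0.10 (log2, SE, adjusted p = 0.208). Without the 3 D1 male libraries that stood apart, which hold the highest Fkbp5 values of the D1 males, it was 0.13 (adjusted p = 0.688). Sgk1 averaged 52.1 ± 7.18 CPM in male and 58.0 ± 6.9 CPM in female D1 libraries, a difference of -0.15 ± 0.05 (adjusted p = 0.207), and -0.09 (adjusted p = 0.688) without those 3. Pdk4 averaged 2.01 ± 0.824 CPM in male and 2.51 ± 0.593 CPM in female D1 libraries (-0.32 ± 0.15, adjusted p = 0.282).

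In D2 neurons 0 of 10 genes differed in mean level by sex, where 0.216% of all genes did, and 0 of 10 had an unadjusted p below 0.05, against 3.59% of all genes. DESeq2 likewise called 0 of the 10 in mean level by sex in either cell type, where it called 0.39% of all genes in D1 and 0.307% in D2 neurons. In rhythm, edgeR called 0 of 10 genes and 0% of all genes between the sexes in both cell types, and 0 of 10 had an unadjusted p below 0.05. Over all genes, 226 in D1 (1.57%) and 389 in D2 neurons (2.71%) had an unadjusted p below 0.05, and DESeq2 called 0 in D1 and 2 in D2 neurons. Fitted by sex, the Zbtb16 amplitude was 0.70 in male and 0.57 in female D1 neurons, with peaks at ZT 13.8 and ZT 15.5. The 3 D1 libraries that stood apart are all male, and the fit within each sex was not repeated without them. In D2 neurons it was 0.40 in males and 0.55 in females, with peaks at ZT 14.3 and ZT 12.3. Tested within 1 sex, Zbtb16 did not pass in male D1 (adjusted p = 0.0541), female D1 (0.528), male D2 (0.547) or female D2 neurons (0.0857). Tsc22d3 had amplitudes of 0.20 in male and 0.39 in female D2 neurons (adjusted p = 0.623 and 0.0165), and was the only member called within a sex (1 of 10 in female D2 neurons, and 0 of 10 in the other groups). All genes were called at 0.0418% in male D1, 0.0279% in female D1, 0.237% in male D2 and 0.495% in female D2 neurons. In D2 neurons Sgk1 had an amplitude of 0.15 in males (adjusted p = 0.204) and 0.15 in females (adjusted p = 0.173).

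**Figure D5:**
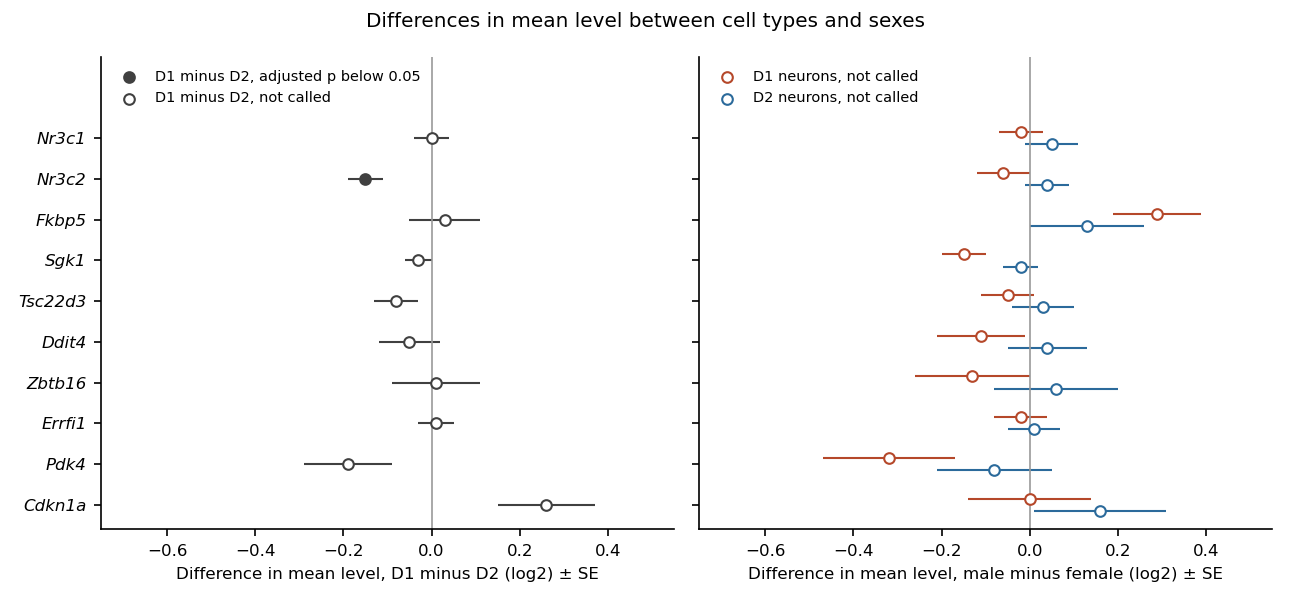
Differences in mean level (log2) ± SE for each gene, D1 minus D2 on the left and male minus female within D1 and D2 neurons on the right. The filled point, Nr3c2 at -0.15, is the single difference with an adjusted p below 0.05, and Fkbp5 in D1 neurons stands at 0.29 male minus female without passing it.

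The likeness of patterns was described by Pearson's r of mean log2(CPM + 1) over the 24 groups of cell type, sex and time. It takes in differences by cell type and sex as well as by time. The groups hold libraries of unequal depth, and ranks are among 9808 genes with a mean of at least 10 CPM. Tsc22d3 stood at rank 22 for Zbtb16 (r = 0.69), and Zbtb16 at rank 7 for Tsc22d3. Both were picked as the members of lowest rhythm p over all libraries, so their likeness to each other is not separate evidence. Fkbp5 had an r of 0.49 with Zbtb16 and 0.47 with Tsc22d3, Sgk1 had 0.43 and 0.49, and Errfi1 had 0.41 and 0.51. Of the targets with a mean below 10 CPM, Pdk4 had 0.41 and 0.45, Ddit4 had 0.02 and 0.09, and Cdkn1a had -0.36 and -0.26. For the receptors, Nr3c1 had an r of -0.47 with Zbtb16 and -0.19 with Tsc22d3, and Nr3c2 had -0.51 and -0.20. The genes nearest to Zbtb16 were ENSMUSG00000031167 (r = 0.87) and ENSMUSG00000015090 (r = 0.85), and those nearest to Tsc22d3 were ENSMUSG00000019232 (r = 0.89) and ENSMUSG00000001156 (r = 0.80), given by identifier since neither the table nor the reference names them.

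In the RefSeq annotation of GRCm38.p6, Nr3c1 (ENSMUSG00000024431) lies on chromosome 18 from 39410545 to 39519421 and Nr3c2 (ENSMUSG00000031618) on chromosome 8 from 76898083 to 77245012. Zbtb16 (ENSMUSG00000066687) lies on chromosome 9 from 48651797 to 48836225, Tsc22d3 (ENSMUSG00000031431) on chromosome X from 140539528 to 140600522, Sgk1 (ENSMUSG00000019970) on chromosome 10 from 21882184 to 21999903 and Fkbp5 (ENSMUSG00000024222) on chromosome 17 from 28398753 to 28486149. Cdkn1a (ENSMUSG00000023067) lies on chromosome 17 from 29090979 to 29100722, and Ddit4 (ENSMUSG00000020108) on chromosome 10 from 59949675 to 59951770. Errfi1 (ENSMUSG00000028967) lies on chromosome 4 from 150853796 to 150868889 and Pdk4 (ENSMUSG00000019577) on chromosome 6 from 5483351 to 5496278.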

How the data were processed

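The authors' table gives unnormalised integer counts for 91 libraries and 14355 Ensembl identifiers. Per the submitters' processing notes, reads went through FastQC 0.11.7, HISAT2 and HTSeq 0.10.0, with GRCm38 and GRCh38 named without a role. The table was filtered on log CPM, going by its title; the limit used and the HISAT2 version were not given in the sources used here.

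Tests used edgeR 4.0.16 under R 4.3.3 (TMM, quasi-likelihood F-test, Benjamini-Hochberg over all genes, threshold 0.05). The model gave every cell type by sex group a separate mean, cosine and sine of 24 h, fitted for D1, D2 and all libraries. All adjusted p-values are edgeR's unless DESeq2 1.42.0 is named. CPM were computed from the deposited counts. Same-letter D2 libraries deviated together in 243 of 243 pairs and D1 libraries in 156 of 223 (correlation over 0.1), so the letter block stands beside D2 results. No 2 libraries of a group were alike within sampling noise (lowest chi-square per gene 4.24). Scripts were tested on simulated data.

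The members and lists were chosen with earlier results of these data known. All members are named by the given rule, and the 2 nearest genes in pattern for the 2 members of lowest rhythm p. Lists of chaperones, other induced genes and cell type markers could not be scored, since 0 of 49997 reference entries carry an Ensembl identifier. Alternatives were RLE, DESeq2, filterByExpr, the letter block, each letter left out, the 3 D1 libraries left out, time as 6 levels and the library total as a covariate.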

Additional observations from a re-analysis of the deposited data

Results flagged for a closer look

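Libraries far from the others of their group were looked for in 190 combinations of gene and group of 4 libraries, and 5 were found (2.63%), where chance gives about 1 in 20. Sgk1 in D2 male libraries of ZT 10 had 65 CPM in letter A, against 57.1 to 57.9 CPM in the others. Ddit4 in D2 female libraries of ZT 10 had 10.5 CPM in letter A, against 7.63 to 7.84 CPM. Zbtb16 in D1 male libraries of ZT 22 had 5.24 CPM in letter B, one of the 3 libraries that stood apart, against 10.9 to 11.9 CPM. Pdk4 in D1 female libraries of ZT 14 had 1.57 CPM in letter D, against 2.88 to 3.15 CPM. Pdk4 in D2 male libraries of ZT 18 had 4.19 CPM in letter C, against 2.7 to 2.82 CPM.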

How the results depend on the processing

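Over 90 results for single genes, 1072 values were recomputed: 1038 kept their side of the threshold, 15 no longer passed it, 19 newly passed it, and 0 called values reversed. Beside each count of members called stands the share of all genes called under the same setting, or the range of shares over several settings. In D1 rhythm, 1 (0.495%) became 2 with the letter as a replicate block (1.13%), without the 3 D1 libraries that stood apart (1.23%) and by DESeq2 (1.5%), the gain being Tsc22d3. It became 3 with the library total as a covariate (2.19%) and with the block and without the 3 libraries (2.04%, added after the data were seen), the gains being Tsc22d3 and Nr3c2, the second at 0.13 (adjusted p = 0.0314) in the added fit. Leaving out a letter gave 0 to 1 (0.0906% to 0.376%). In D2 rhythm 3 (2.94%) became 1 with time as 6 levels (0.634%), losing Zbtb16 and Sgk1, and 0 to 2 when a letter was left out (0.383% to 1.82%). For the mean of D1 minus D2, 1 (19.3%) became 2 with the block (38.1%), with the library total (30.7%) and with the block and without the 3 libraries (42.2%), the gain being Cdkn1a. The count was 0 to 3 when a letter was left out (12.3% without letter D to 48.2% without letter A). These counts are near or below the share of all genes. For sex in D1 neurons, 0 (0.0418%) became 2 with the block (7.26%; Fkbp5 0.28, adjusted p = 0.0313, and Sgk1 -0.16, adjusted p = 0.0404) and was 0 once the 3 libraries were also left out (0.23%). In D2 neurons the block changed the call of Fkbp5 and of no other member. Over all libraries the count of 3 (3.92%) stayed between 2 and 4 (1.37% to 13.6%). In D1 neurons only 70% of same-letter pairs deviated together, so the block there may not mark a pairing. A pairing in D2 neurons was not tested either, since pairs of unlike letters were not compared. The cause of these changes was not tested, beyond the fewer libraries of each letter left out.

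Counts over all genes moved more: 71 in D1 rhythm ran from 13 to 314, 422 in D2 rhythm from 55 to 3198, 562 over all libraries from 196 to 1949, 2770 in mean D1 minus D2 from 1767 to 6912, 2 in rhythm difference from 0 to 76, 6 by sex in D1 neurons from 2 to 1042 and 31 by sex in D2 neurons from 7 to 1357. For rhythm by sex, 0 stayed 0 in D1 neurons and ran from 0 to 3 in D2 neurons. Cdkn1a and Pdk4 reached as few as 6 and 7 counts in a library, which limits their precision.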
